A study of Mus musculus with 6 samples.

Results

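The 10 genes Krt75, Rimkla, Amph, Ppm1j, Mid1, Filip1, Lhx2, Rhoj, C1qtnf6 and Gnb4 were followed across every library of a mouse leukemia study, out of 33924 genes in its count table. They were chosen by name from earlier results of the same libraries, the first 4 as high in leukemia 92 and the other 6 as high in leukemia 1. The levels therefore chose the genes, and their differences between the groups are given as a description with no test. All 10 passed the filter on low counts, which 14979 genes passed.

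RNA from mouse bone marrow was sequenced in 6 libraries, 2 for each of 3 groups: pro-B cells of wildtype mice, leukemia 1 and leukemia 92. Both leukemias carried the genotype Mll-Af4/N-RasG12D. The starting cells were c-Kit+ Sca1+ bone marrow of Mll-Af4 animals aged 6 to 8 weeks, kept overnight with lymphoid cytokines, infected with a Cre and TdTomato retrovirus and then with an N-RasG12D retrovirus. Of these cells 250000 were injected into mice irradiated with 900 rads, with 200000 wild-type helper marrow cells, so host and helper cells can be present in a leukemic marrow. The pro-B cells were B220+ CD43+ IgM- cells of wildtype genotype, whose age is not stated, and carried neither allele nor virus. The titles number 2 replicates per group without saying whether they were separate animals, so the spread between them, which is what the p-values measure, may be technical. Whether a leukemia is 1 clone is not stated.

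These genes have no pathway in common, and most are known from tissues outside the blood. Krt75 encodes a hair follicle keratin, Rimkla a synthetase of the neural dipeptide N-acetylaspartylglutamate (NAAG), Amph the synaptic endocytosis protein amphiphysin, and Ppm1j a phosphatase of the PP2C family. Mid1 encodes a microtubule-bound ubiquitin ligase that binds the alpha4 regulator of the phosphatase PP2A, Filip1 a filamin-binding protein of migrating neurons, and Lhx2 a LIM homeodomain factor of forebrain, eye and hair follicle. Rhoj encodes a CDC42-like GTPase best known in endothelium, C1qtnf6 a secreted protein of the C1q and TNF related group, and Gnb4 a beta subunit of heterotrimeric G proteins. Whether such transcripts differ by clone or by animal was not tested.

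Gene counts summed to 22153444 to 27444759 per library. The leukemia 1 libraries stood apart from each other: the SD of their log2 difference over tested genes was 1.04, against 0.25 for leukemia 92 and 0.25 for pro-B cells. Of 15 granulocyte markers, none at 0 throughout, the summed level was 184 and 16603 CPM for leukemia 1 replicates 1 and 2, 810 and 459 CPM for leukemia 92, and 428 and 454 CPM for pro-B cells (CPM, counts scaled to library size with TMM). Y-linked transcripts summed to 4.92 and 44.6 CPM for leukemia 1 and to at most 0.280 CPM in any other library. None of 12 pro-B markers was under 1 CPM in both libraries of any group. The pro-B libraries also held more transcripts of some other cell types. The 7 plasmacytoid dendritic markers summed to 2405 and 2713 CPM in them, against 407 to 431 CPM in the leukemia libraries. Of these, Siglech stood at 1369 and 1545 CPM against 15.0 to 33.9 CPM. Cox6a2 (34.0 and 44.7 CPM against 35.0 to 94.8 CPM) and Pacsin1 (102 and 119 CPM against 26.8 to 119 CPM) overlapped. The 12 T and NK markers summed to 339 and 323 CPM in the pro-B libraries, against 15.7 to 62.0 CPM. Of these, Cd5 went the other way, at 3.30 and 3.63 CPM against 7.62 to 30.7 CPM. Cd3e, Cd3d, Cd3g and Trac were highest in leukemia 1 replicate 2. They were higher in both pro-B libraries than in leukemia 1 replicate 1 and leukemia 92. The 10 erythroid markers summed to 77.8 and 184 CPM, against 1.23 to 4.14 CPM. The sum of the 9 macrophage markers went the other way, with 86.3 and 109 CPM in pro-B cells against 204 to 635 CPM in the leukemia libraries. Of these, Csf1r stood at 3.56 and 5.27 CPM against 138 to 464 CPM. C1qa, C1qb, C1qc and Vcam1 were instead higher in both pro-B libraries than in leukemia 1 replicate 1 and leukemia 92, and highest in leukemia 1 replicate 2. Emr1 and Cd68 overlapped. None of these lists had a marker at 0 in all libraries. In bulk RNA, fewer cells that express a gene and less RNA per cell cannot be told apart.

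The sequence upstream of each start shows that the genes differ in CG content. RefSeq promoters (build GRCm38.p6) matched 9 of the 10 genes with 15 starts, and Gnb4 had none. The 250 bases before the start are shown for 2 genes high in leukemia 92 and 2 high in leukemia 1, with each CG dinucleotide in capitals because CG content separates promoter classes. Each of these genes has 1 start in the table.
Krt75: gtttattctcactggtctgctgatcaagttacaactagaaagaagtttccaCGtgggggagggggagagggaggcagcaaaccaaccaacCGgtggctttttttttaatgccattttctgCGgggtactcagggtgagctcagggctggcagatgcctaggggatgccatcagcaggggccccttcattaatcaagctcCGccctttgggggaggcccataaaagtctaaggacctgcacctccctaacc
Rimkla: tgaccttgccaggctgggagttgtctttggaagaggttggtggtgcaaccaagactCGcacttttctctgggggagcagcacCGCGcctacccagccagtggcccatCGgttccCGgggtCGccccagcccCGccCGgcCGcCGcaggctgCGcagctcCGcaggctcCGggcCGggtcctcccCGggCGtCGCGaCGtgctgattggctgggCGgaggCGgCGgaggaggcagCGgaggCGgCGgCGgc
Rhoj: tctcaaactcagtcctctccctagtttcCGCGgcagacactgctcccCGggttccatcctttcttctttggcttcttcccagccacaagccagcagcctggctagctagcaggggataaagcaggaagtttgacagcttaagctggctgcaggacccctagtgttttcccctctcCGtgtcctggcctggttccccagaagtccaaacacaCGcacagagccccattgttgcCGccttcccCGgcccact
C1qtnf6: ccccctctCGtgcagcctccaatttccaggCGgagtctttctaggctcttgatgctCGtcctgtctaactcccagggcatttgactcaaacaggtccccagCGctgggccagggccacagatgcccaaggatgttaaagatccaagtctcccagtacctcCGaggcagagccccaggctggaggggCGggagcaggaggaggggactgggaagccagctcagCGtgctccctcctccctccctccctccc
CG dinucleotides numbered 4 upstream of Krt75, on chr15:101573905-101574154 (minus strand), and 26 upstream of Rimkla, on chr4:119492599-119492848 (minus strand). The windows of Rhoj, on chr12:75308063-75308312 (plus strand), and of C1qtnf6, on chr15:78529652-78529901 (minus strand), held 7 each. Over all 32851 promoters the median was 6, with quartiles of 2 and 16. The Rimkla window thus lay at the CG-rich end, with 90.4% of promoters below it, and Krt75 on the poor side with 37.8% below it, although both genes were high in the same libraries. The TATA box TATAAA was in 0 of the 15 windows and in 12.4% of all promoters, on either strand. The E-box CACGTG stood in the Krt75 window alone and in 6.02% of all promoters, and the AP-1 site TGANTCA in the C1qtnf6 window alone and in 6.75%. The RUNX site TGTGGT stood in 1 of the 4 Filip1 windows (14.0% of all promoters) and the ETS site CCGGAAG in 0 (6.91%). No motif searched was shared by 2 of the genes, and a match describes letters only.

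Krt75 came nearest to an on-off pattern. It had 3875 and 2563 counts in leukemia 92, 0 and 2 in leukemia 1, and 0 in each library of pro-B cells, where a count of 0 allows up to 0.111 and 0.117 CPM. This keratin of the hair follicle stood at 159 and 120 CPM for leukemia 92. The ratio to leukemia 1 was 3637 (95% exact interval from counts 1006 to 30038, counting error only), and leukemia 92 was at least 2471-fold higher than pro-B cells against a floor of 3 counts over that group. Both counts of leukemia 1 came from replicate 2, the library rich in granulocyte transcripts.

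Amph, amphiphysin, was the next lowest outside leukemia 92. Its counts were 465 and 556 in leukemia 92, 12 and 8 in leukemia 1, and 1 and 0 in pro-B cells. These correspond to 19.1 and 26 CPM for leukemia 92 and 0.488 and 0.296 CPM for leukemia 1. The ratio of leukemia 92 to leukemia 1 was 57.7, and that to pro-B cells 1176 (95% exact interval 211 to 46477). The latter rests on 1 count: the fitted log2 difference of 9.88 became 12.12 without pro-B replicate 1, which held that count, and 9.06 without replicate 2. Leukemia 1 thus held a low level that lay above both pro-B libraries.

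Rimkla, the NAAG synthetase, stood at 54.6 and 66.8 CPM for leukemia 92. It was at 0.772 and 0.370 CPM for leukemia 1 and at 1.52 and 0.897 CPM for pro-B cells, so the pro-B libraries held a low level and the leukemia 1 libraries lay below it. Leukemia 92 was 107-fold above leukemia 1 and 49.6-fold above pro-B cells.

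Ppm1j, the PP2C phosphatase, was expressed in all 6 libraries. It stood at 39.8 and 31.3 CPM for leukemia 92, 2.36 and 3.48 CPM for leukemia 1, and 3.85 and 4.21 CPM for pro-B cells. Leukemia 92 was 12.2-fold above leukemia 1 and 8.89-fold above pro-B cells. Leukemia 1 and pro-B cells lay side by side without overlap, with a log2 difference of -0.47 (SE 0.27).

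**Figure D1:**
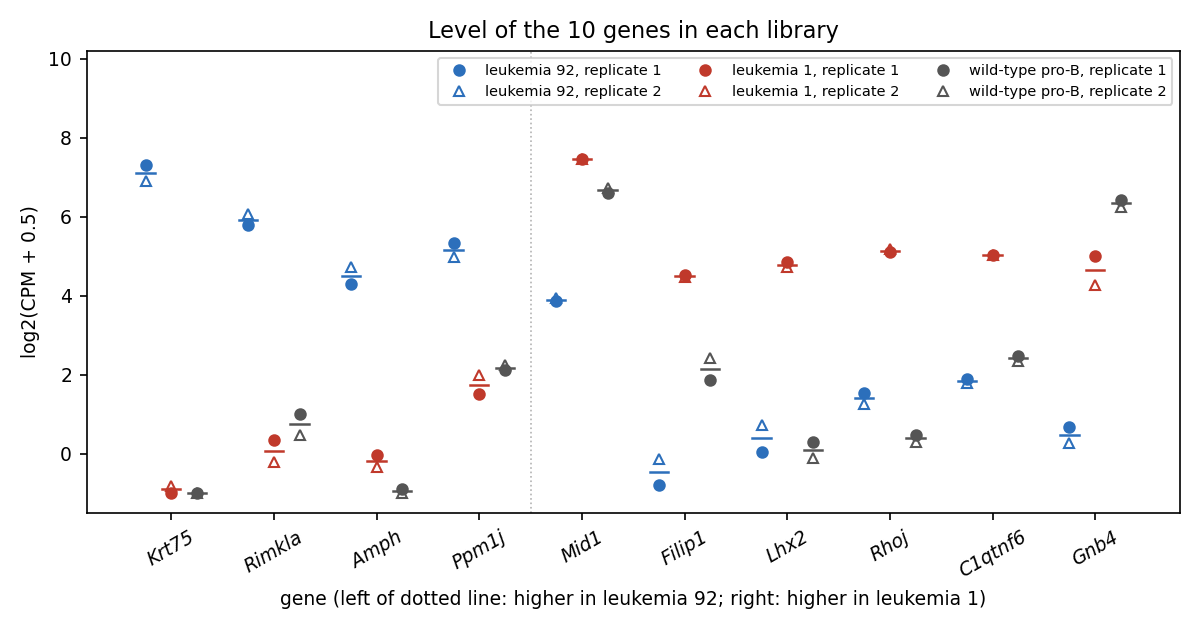
Level of each of the 10 genes in the 6 libraries, as log2(CPM + 0.5) on the vertical axis. Filled circles are replicate 1, open triangles replicate 2 and bars the mean of 2 libraries. Krt75, Rimkla, Amph and Ppm1j are highest in leukemia 92, Filip1, Lhx2, Rhoj and C1qtnf6 in leukemia 1, while the pro-B level of Mid1 lies between the leukemias and that of Gnb4 above both.

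Among the 6 genes chosen as high in leukemia 1, Lhx2 and Rhoj were low everywhere else. Lhx2, the homeodomain factor, had 695 and 701 counts in leukemia 1, or 28.2 and 25.9 CPM. It stood at 0.535 and 1.17 CPM for leukemia 92 and 0.741 and 0.429 CPM for pro-B cells, ranges that overlapped. The ratio was 32.5 to leukemia 92 and 45.9 to pro-B cells. Both leukemia 1 libraries stood apart from the 4 others. Rhoj, the CDC42-like GTPase, stood at 33.9 and 35.6 CPM for leukemia 1, 2.43 and 1.92 CPM for leukemia 92, and 0.889 and 0.741 CPM for pro-B cells. It was 15.9-fold above leukemia 92 and 42.6-fold above pro-B cells, and leukemia 92 itself lay 2.68-fold above pro-B cells without overlap.

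Filip1 and C1qtnf6 had an intermediate pro-B level. Filip1, the filamin-binding protein, stood at 22.4 and 21.6 CPM for leukemia 1, 3.15 and 4.84 CPM for pro-B cells, and 0.0822 and 0.421 CPM for leukemia 92, the last from 2 and 9 counts. Leukemia 1 was 5.53-fold above pro-B cells, and pro-B cells were 16.5-fold above leukemia 92, so the larger step was the lower level in leukemia 92. C1qtnf6, the secreted C1q and TNF related protein, stood at 32.1 and 31.9 CPM for leukemia 1, 5.11 and 4.56 CPM for pro-B cells, and 3.25 and 2.99 CPM for leukemia 92. Here the larger step was the other one: leukemia 1 was 6.61-fold above pro-B cells, and pro-B cells 1.55-fold above leukemia 92.

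Mid1 and Gnb4 were also high in pro-B cells, and Gnb4 went against its label. Mid1, the microtubule-bound ubiquitin ligase, stood at 97.2 and 105 CPM for pro-B cells, between 175 and 176 CPM for leukemia 1 and 14.0 and 15.0 CPM for leukemia 92. Leukemia 1 was only 1.74-fold above pro-B cells, while pro-B cells were 6.99-fold above leukemia 92. Gnb4, the G protein subunit, was highest in pro-B cells, at 85.5 and 76.0 CPM, against 31.7 and 18.9 CPM for leukemia 1 and 1.11 and 0.701 CPM for leukemia 92. Pro-B cells were 3.23-fold above leukemia 1 and 88.0-fold above leukemia 92. Both were thus present in the pro-B libraries and low in leukemia 92, and neither was private to leukemia 1. The part of the dendritic and NK transcripts of the pro-B libraries in these levels was not tested.

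The lower library of the high leukemia lay above both libraries of the other leukemia for all 10 genes, by 9.0-fold (Ppm1j) to 1620-fold (Krt75). Of all genes tested, 3.09% were called between the leukemias by edgeR (1.82% higher and 1.27% lower in leukemia 92), and nothing is read from the count of 10, which the choice of genes fixed. Over all 4 other libraries the ratio was 1620 for Krt75, 39.2 for Amph, 36.0 for Rimkla, 22.2 for Lhx2 and 14.0 for Rhoj. It was 7.42 for Ppm1j, 6.25 for C1qtnf6, 4.46 for Filip1, 1.67 for Mid1 and 0.221 for Gnb4. The values just above and just below 8 were thus those of Rhoj and Ppm1j.

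**Figure D2:**
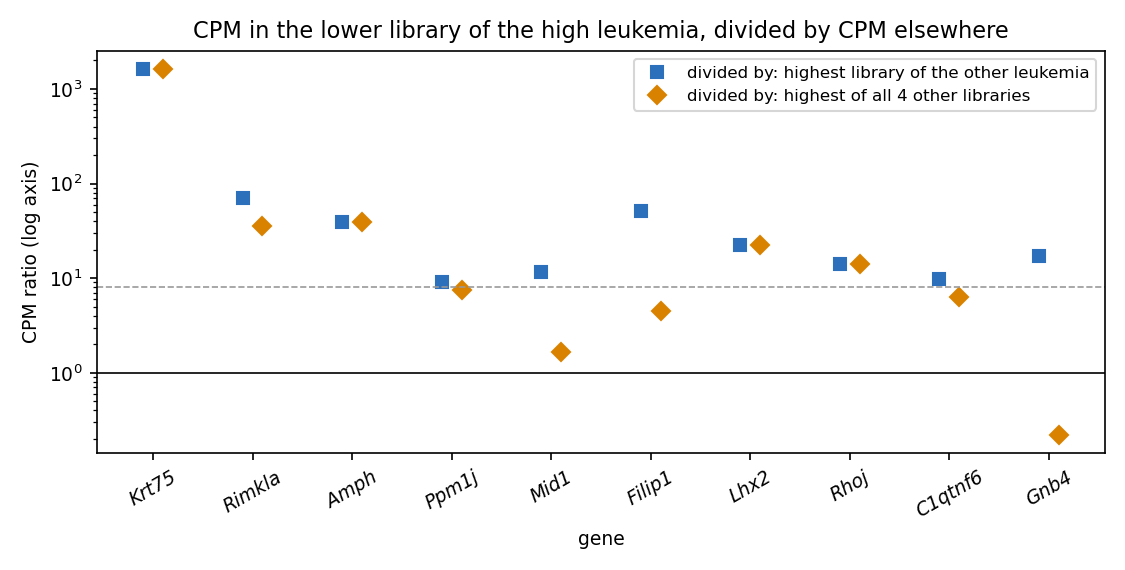
CPM in the lower of the 2 libraries of the leukemia named for each gene, divided by the highest library of the other leukemia (squares) or by the highest of all 4 other libraries (diamonds), on a log axis. The solid line marks a ratio of 1 and the dashed line 8. Diamonds of Mid1 and Gnb4 fall to 1.67 and 0.221, while both symbols of Krt75 stand at 1620.

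A private pattern was defined as a lower library of 1 leukemia at least 8-fold above every other library (CPM + 0.5) with a mean of at least 5 CPM. Of 23173 genes with a count, 12 had it for leukemia 92 (0.0518%) and 5 for leukemia 1 (0.0216%). Krt75, Rimkla and Amph were 3 of the 12, and Lhx2 and Rhoj 2 of the 5. By this ratio Krt75 ranked the first of the 12, at 210, Rimkla the second, at 27.3, and Amph the fourth, at 19.9. Lhx2 ranked the second of the 5, at 15.8, after the imprinted RNA H19, and Rhoj the fourth, at 11.8. At 4-fold, Ppm1j, Filip1 and C1qtnf6 had the pattern too, among 48 genes for leukemia 92 and 13 for leukemia 1, and at 16-fold Lhx2 and Rhoj lost it, with 4 and 1 genes left. Mid1 and Gnb4 had it at none of these folds.

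The mirror pattern, with the other 4 libraries at least 8-fold above leukemia 92, was defined after the levels of Gnb4 and Mid1 had been seen. It held for 9 genes (0.0388%), Gnb4 among them at 12, and for 1 gene in leukemia 1 (0.00432%). For comparison, 75 genes were high in leukemia 1 replicate 2 alone and 7 in its replicate 1 alone, and none in a single library of leukemia 92. None of the 10 genes was among these, which the choice of genes favoured.

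The 6 genes named for leukemia 1 had similar levels in its 2 libraries, which the choice of genes favoured. The granulocyte marker sum was 184 CPM in replicate 1 and 16603 CPM in replicate 2, and the part of such transcripts in these levels was not tested. For 5 of the 6 genes the higher library of leukemia 1 was 1.01-fold (C1qtnf6 and Mid1) to 1.09-fold (Lhx2) above the lower one. For Gnb4 it was 1.68-fold, with the lower value in replicate 2. Without replicate 2, the log2 difference of leukemia 92 minus leukemia 1 was -3.59 for Mid1 (-3.60 with it), -6.51 for Filip1 (-6.45), -5.07 for Lhx2 (-4.99), -3.95 for Rhoj (-4.0), -3.36 for C1qtnf6 (-3.36) and -5.10 for Gnb4 (-4.79). For Filip1 it was -5.68 and -7.96 without leukemia 92 replicate 1 or 2, and for Lhx2 -5.63 without replicate 2. For Krt75 the fitted value of 11.64 became 10.80 and 14.73 without leukemia 1 replicate 1 or 2, the latter with 0 counts left in leukemia 1, so its size depends on 2 counts. The SE of the differences of the 6 genes, over all libraries, was 0.13 (Mid1) to 0.73 (Filip1). For Rimkla, Amph and Ppm1j the log2 difference was 6.73 (SE 0.49), 5.83 (SE 0.56) and 3.60 (SE 0.29), and that of Rimkla was 7.35 without leukemia 1 replicate 1. The 4 genes named for leukemia 92 differed 1.22-fold (Rimkla) to 1.36-fold (Amph) between its 2 libraries.

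Markers of the tissues in which these genes are best known were low in part. Of 9 endothelial markers, Tek, Emcn, Esam and Cldn5 were under 1 CPM in every library and Kdr in every leukemia library, while Pecam1, which B-lineage and myeloid cells also express, stood at 167 to 553 CPM. Cdh5 stood at 29.6 and 32.7 CPM for pro-B cells and at 1.63 to 2.10 CPM in the leukemias, and Vwf and Tie1 reached 1.85 and 2.48 CPM for leukemia 1 replicate 2. The list summed to 391 and 324 CPM for leukemia 1, 556 and 551 CPM for leukemia 92, and 204 and 207 CPM for pro-B cells. Of 8 epithelial markers, Krt14 and Cldn3 had 0 counts in all libraries, and Krt5, Krt8 and Krt18 were under 1 CPM in all. Epcam stood at 11.5 and 6.68 CPM for leukemia 92, 0.894 and 1.22 CPM for leukemia 1, and 6.19 and 6.63 CPM for pro-B cells. Cdh1, the adhesion protein E-cadherin, made up most of that list, with 265 and 322 CPM for leukemia 92, 42.7 and 93.7 CPM for leukemia 1, and 53.2 and 63.3 CPM for pro-B cells, and the list summed to 277 and 330, 43.6 and 95.5, and 61.4 and 71.7 CPM. Of 8 neuronal markers 7 were under 1 CPM in both libraries of every group, and Syt1 and Nefl had 0 counts throughout. The neuronal list summed to 12 and 16.8 CPM for leukemia 1, 9.13 and 10.1 CPM for leukemia 92, and 3.15 and 3.08 CPM for pro-B cells. Col1a1, Col1a2 and Col3a1, collagens that define stromal cells, reached 4.66, 6.03 and 2.37 CPM for leukemia 1 replicate 2 and were under 1 CPM in the other libraries. Pdgfrb, the receptor of pericytes and fibroblasts, stood at 15.5 and 13.9 CPM for leukemia 92, most of the stromal sum there, and at 2.4 and 1.26 CPM for leukemia 1. The 8 stromal markers, none at 0 throughout, summed to 2.48 and 16.8 CPM for leukemia 1, 16.5 and 14.3 CPM for leukemia 92, and 3.44 and 6.47 CPM for pro-B cells. The part of the epithelial, endothelial and stromal transcripts in the levels of the 10 genes was not tested.

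**Figure D3:**
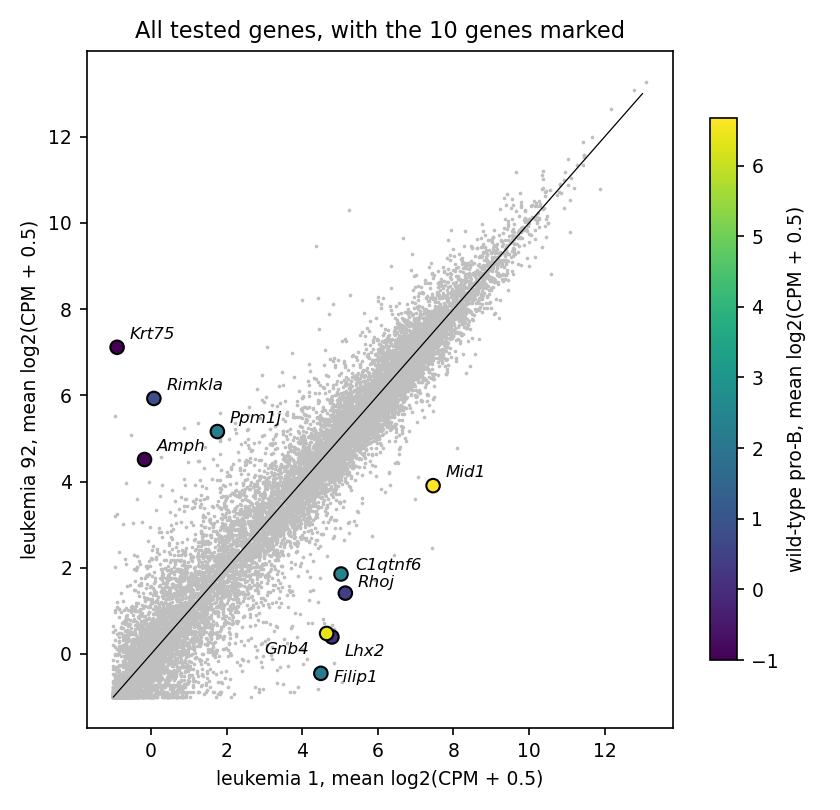
Mean log2(CPM + 0.5) in leukemia 1 (horizontal) and leukemia 92 (vertical) for all 14979 tested genes (grey) and the 10 genes (large points, coloured by their mean in pro-B cells). The line marks equal levels. Krt75 lies farthest from the line, and Mid1 and Gnb4 carry the colours of a high pro-B level.

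Relatives of the 10 genes were listed by family, not by value, and the 12 lists were tested in a fit of all genes by edgeR's quasi-likelihood test. The lists held 242 genes beside the 10, of which 147 passed the filter. Of these 147, edgeR called 2 higher and 1 lower in leukemia 92 than in leukemia 1, or 2.04% against 3.09% of all genes tested. An unadjusted edgeR p under 0.05 was found for 37 of the 147 and for 3759 of all 14979 genes tested. The median log2 change of the 147 was 0.01, and that of all genes -0.08. Against pro-B cells, 34 were higher and 18 lower in leukemia 92 (35.4% against 31.4% of all genes, 14.7% higher and 16.7% lower), and 20 were higher and 15 lower in leukemia 1 (23.8% against 20.3%, 9.55% higher and 10.7% lower). These comparisons share the pro-B libraries.

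Bin2, a BAR-domain relative of amphiphysin found in blood cells, stood at 278 and 280 CPM for leukemia 92, 105 and 111 CPM for leukemia 1, and 59.0 and 67.6 CPM for pro-B cells. It was higher in leukemia 92 than in leukemia 1 (log2 change 1.37, SE 0.13, edgeR adjusted p = 0.027). Lmo2, a LIM-only partner of GATA complexes in blood progenitors, stood at 172 and 182 CPM for leukemia 92 and 52.3 and 54.5 CPM for pro-B cells. Against 108 and 104 CPM for leukemia 1, it was higher in leukemia 92 (log2 change 0.73, SE 0.11, edgeR adjusted p = 0.047). Rhoh, the GTPase of lymphocytes, stood at 40.0 and 39.2 CPM for leukemia 92, 90.6 and 85.2 CPM for leukemia 1, and 82.3 and 87.1 CPM for pro-B cells (log2 change -1.15, SE 0.12, edgeR adjusted p = 0.027). Leukemia 1 and pro-B cells overlapped for Rhoh (log2 change 0.05, adjusted p = 0.77). Leaving out either library of leukemia 92 or of pro-B cells ended all 3 calls, with edgeR adjusted p of 0.18 to 0.43.

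The nearest relatives did not share the difference at a level that could be tested, or did not pass. Krt5, the basal keratin, had 1 count in all 6 libraries. Rimklb, the other NAAG synthetase, Mid2, the paralog of Mid1, Lhx9, the paralog of Lhx2, and C1qtnf1 were each at most 0.222 CPM in any library and did not pass the filter. Bin1, the ubiquitous amphiphysin, stood at 307 and 330 CPM for leukemia 92 and 322 and 393 CPM for leukemia 1 (log2 change -0.17, SE 0.15, edgeR adjusted p = 0.52). It was higher than in pro-B cells, at 136 and 124 CPM, in both leukemias (log2 changes 1.29 and 1.46, adjusted p = 0.0056 and 0.0068). Gnb2, a beta subunit expressed widely, stood at 344 and 334 CPM for leukemia 92 and 192 and 345 CPM for leukemia 1 (log2 change 0.34, SE 0.29, adjusted p = 0.51). Rhoq, the closest GTPase to Rhoj, had 67.9 and 66.7 CPM for leukemia 92 and 62.5 and 22.8 CPM for leukemia 1 (log2 change 0.66, SE 0.47, adjusted p = 0.43).

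Ppm1h, the PP2C phosphatase closest to Ppm1j, was low where Ppm1j was high: 0.699 and 0.421 CPM for leukemia 92, against 48.6 and 59.4 CPM for pro-B cells (log2 change -6.57, SE 1.63, edgeR adjusted p = 0.038). In leukemia 1 it was at 0.406 and 11.5 CPM, and the difference between the leukemias did not pass (adjusted p = 0.24). Filip1l, the paralog of Filip1, lay at 79.8 and 78.5 CPM for leukemia 92 and at 135 and 56.9 CPM for leukemia 1 (log2 change -0.28, adjusted p = 0.71). Its direction depended on the leukemia 1 library: the log2 change was 0.49 without replicate 1 and -0.77 without replicate 2.

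Keratins as a group were nearly silent. Of 23 other type II keratins 11 had no count and only Krt7 and Krt80 passed the filter. Krt80 stood at 46.5 and 42.6 CPM for leukemia 92 and 6.34 and 30.5 CPM for leukemia 1, against 0.259 and 0.585 CPM for pro-B cells, and rose in both (log2 changes 6.71 and 5.44, edgeR adjusted p = 0.011 and 0.024). Krt7 rose in leukemia 92 against pro-B cells (log2 change 4.89, edgeR adjusted p = 0.035), and its difference between the leukemias did not pass (2.45, adjusted p = 0.22). Of 17 type I keratins, which pair with the type II kind, 2 were tested and neither passed. Of 17 PP2C phosphatases tested beside Ppm1j none passed between the leukemias, and the median log2 change was -0.09.

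In the alpha4 and PP2A module that MID1 acts on, of 9 tested genes none passed between the leukemias (median log2 change -0.28), and Igbp1, which encodes alpha4, stood at 91.6 and 89.1 CPM for leukemia 92, 82.1 and 90.6 CPM for leukemia 1 and 85.1 and 91.5 CPM for pro-B cells. Flna, the filamin that FILIP1 acts on, rose in both leukemias against pro-B cells (log2 change 1.87 in leukemia 92 and 1.2 in leukemia 1, edgeR adjusted p = 0.0044 and 0.018). Between the leukemias none of 8 filamin genes passed (median 0.18), although Filip1 was 91.3-fold apart. Of 21 LIM homeodomain genes and cofactors 8 were tested, 1 was higher and 7 did not pass, and 7 had no count.

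Of 18 effectors of CDC42 and RHOJ none passed between the leukemias (median 0.14). Against pro-B cells, of these 18 effectors 7 rose and 1 fell in leukemia 92, where 14.7% of all genes tested were higher and 16.7% lower, and 3 rose and 1 fell in leukemia 1, where 9.55% were higher and 10.7% lower. Heterotrimeric G proteins gave no call between the leukemias among 25 tested (median 0.00), and Gnb1, the main beta subunit of most cells, stood at 524 and 515 CPM for leukemia 92, 518 and 421 CPM for leukemia 1 and 382 CPM in each pro-B library. Of 5 tested genes related to C1qtnf6 none passed (median -5.43). C1qa, C1qb and C1qc, the complement chains that mark macrophages, stood at 39.9, 50.5 and 32.3 CPM for leukemia 1 replicate 2. In the other libraries they were at most 2.65 CPM. C1qtnf6 was at 32.1 and 31.9 CPM in the leukemia 1 libraries, and the part of macrophage transcripts in this level was not tested. Of 28 endocytosis genes tested beside Amph 1 was higher (median 0.26), and of 6 genes of NAAG metabolism none passed (median -0.62).

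**Figure D4:**
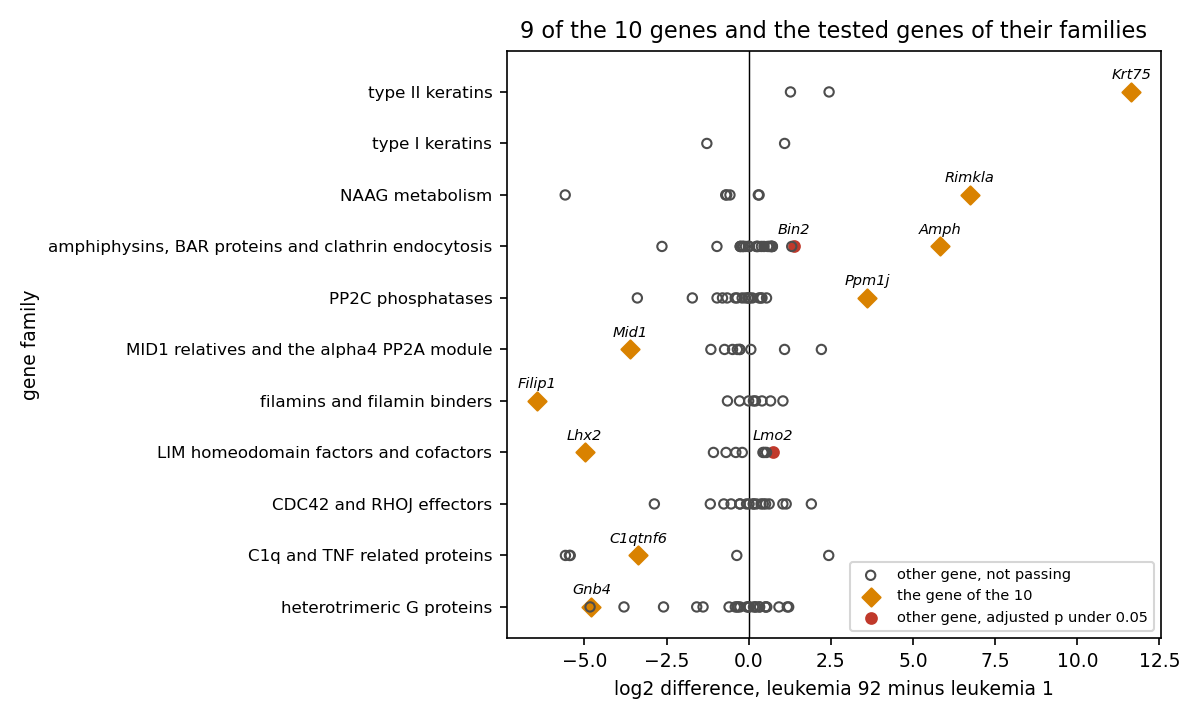
Log2 difference of leukemia 92 minus leukemia 1 for 9 of the 10 genes (diamonds, Rhoj not drawn) and for the tested genes of 11 family lists (circles), 1 list per line. Filled circles are the relatives on these lines with an edgeR adjusted p under 0.05, Bin2 (1.37) and Lmo2 (0.73). The diamonds of C1qtnf6 (-3.36) and Gnb4 (-4.79) lie within the range of their families, and the other 7 lie outside it. For C1qtnf6 the range reaches that low only through C1qa, C1qb and C1qc, which were high in leukemia 1 replicate 2 alone. The value of Krt75 rests on 2 counts in leukemia 1, and the circle on the diamond of Gnb4 is Gng4, with 0 counts in leukemia 92.

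Position gave a further measure that the choice did not use. The 3 genes of the table on each side of each gene, in the order of RefSeq on GRCm38.p6, came to 57 genes, because Mid1 lies at the end of X and had neighbours on 1 side. Of these, 34 passed the filter. With edgeR 0 were called between the leukemias, against 3.09% of all genes. An unadjusted edgeR p under 0.05 was found for 15 of the 34 and for 3759 of all 14979 genes tested. DESeq2 called 11 of the 34, and 1323 higher and 1340 lower among all 23173 genes with a count. The 34 had passed the low-count filter and the 23173 had not been filtered, so the shares have unlike bases. The median log2 change of the 34 was -0.17. The type II keratins beside Krt75 on chromosome 15, among them Krt82, Krt84, Krt6a and Krt6b, were at most 0.280 CPM in every library while Krt75 stood at 159 and 120 CPM. The few counts of the 3 genes on 1 side were all in leukemia 92: 6 and 6 for 4732456N10Rik, 2 and 4 for Krt82, and 1 and 0 for Krt84. The 3 genes on the other side had 0 counts in every library.

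The following neighbours were chosen after their values were seen. Fam19a3, next to Ppm1j, stood at 4.48 and 2.90 CPM for leukemia 92, 0.203 and 0.887 CPM for leukemia 1 and 0.778 and 0.546 CPM for pro-B cells (log2 change 2.74, SE 0.75, edgeR adjusted p = 0.12). The noncoding gene 4930429F24Rik, next to Filip1, stood at 1.22 and 0.813 CPM for leukemia 1 and 0.0822 and 0.0467 CPM for leukemia 92 (edgeR adjusted p = 0.073). Tcrg-V4, a T cell receptor gamma segment beside Amph, stood at 8.59 and 13.6 CPM for leukemia 92, 3.29 and 0.813 CPM for leukemia 1 and 0.259 and 0.429 CPM for pro-B cells (edgeR adjusted p = 0.14). Slc16a1, also beside Ppm1j, went against it, at 30.3 and 34.4 CPM for leukemia 92 and 127 and 62.0 CPM for leukemia 1 (log2 change -1.55, edgeR adjusted p = 0.090). Myo6, beside Filip1, had the lowest edgeR adjusted p of the 34 (0.061), with 1.52 and 1.26 CPM for leukemia 92, 4.19 and 7.54 CPM for leukemia 1 and 11.4 and 12.4 CPM for pro-B cells. These 5 were among the 11 that DESeq2 called. Mfn1, the mitochondrial fusion gene that overlaps Gnb4, was at 38.2 to 47.2 CPM in all libraries (log2 change 0.09, edgeR adjusted p = 0.75).

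**Figure D5:**
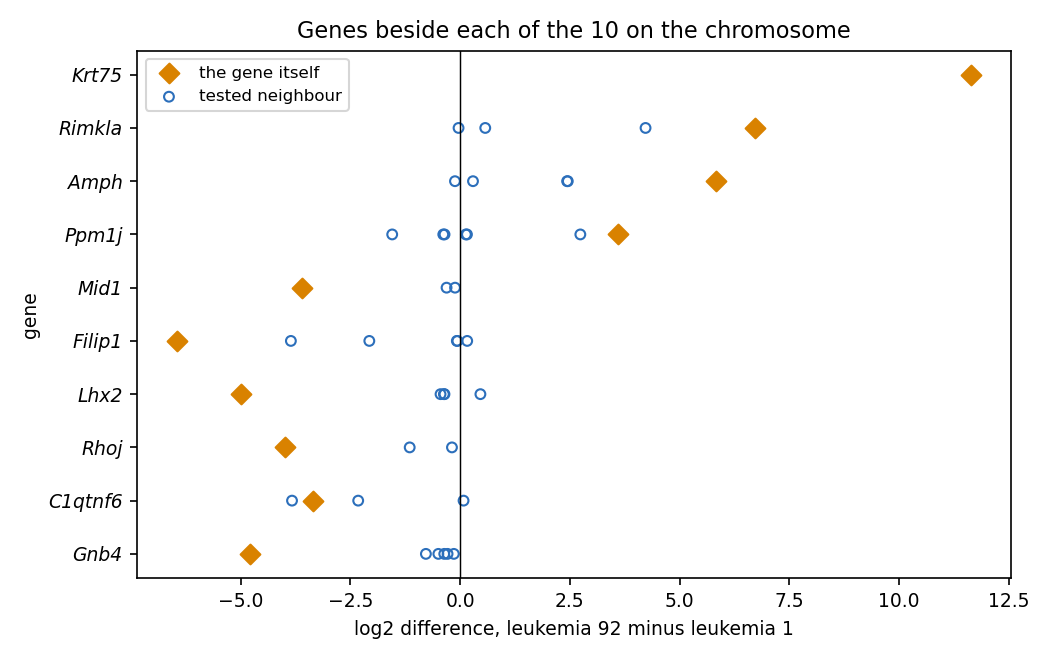
Log2 difference of leukemia 92 minus leukemia 1 for each of the 10 genes (diamonds) and for the tested genes among the 3 nearest on each side (circles). No neighbour of Krt75 passed the filter. Of the neighbours of Gnb4, the 5 tested lie between -0.78 and -0.14, and Gnb4 itself at -4.79.

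How far reads could be shared with other genes was checked on GENCODE M21 transcripts, in stretches of 50 bases. Ppm1j, Filip1, Lhx2 and Rhoj shared none with another gene, and Gnb4, Amph, Krt75 and C1qtnf6 0.0933% to 2.58%. Rimkla shared 7.65%, all with its neighbour Zmynd12, which was at most 0.247 CPM in any library. Mid1 shared 28.7%, largely with its pseudogene and with G530011O06Rik, a noncoding gene that overlaps it, so its counts are the least certain of the 10. G530011O06Rik went the other way, with 14.4 and 11.2 CPM for leukemia 92 and 5.20 and 4.07 CPM for leukemia 1 (log2 change 1.47, edgeR adjusted p = 0.064), and stood at 6.30 and 7.76 CPM for pro-B cells. In the mouse Mid1 spans the border of the pseudoautosomal region. The X-linked RNA Xist stood at 811 and 579 CPM for leukemia 1, 1667 and 1568 CPM for leukemia 92 and 1417 and 1208 CPM for pro-B cells, and the part of these in the Mid1 level was not tested.

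Genes with the most similar pattern were sought by the root mean square difference of gene-centred log2(CPM + 0.5) over the 6 libraries, a description with no test. Brip1, the helicase of the Fanconi pathway, was the closest to both Rimkla (0.38) and Amph (0.51) and the second closest to Krt75 (1.54). It stood at 1298 and 1205 CPM for leukemia 92, 49.4 and 27.5 CPM for leukemia 1 and 48.0 and 45.2 CPM for pro-B cells. Cd14, the endotoxin coreceptor, was the closest to Krt75 (1.5), Sema5a the second to Rimkla (0.79) and Abcc8 the second to Amph (0.56). Krt75 thus had no near match, and Ppm1j had the nearest, in Sema4g (0.19) and Sulf2 (0.23).

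For the genes of leukemia 1 the closest were Xlr4a (0.22) and Xlr4c (0.64) to Filip1, both on X, Cxcl9 (0.48) and Tnfsf4 (0.58) to Lhx2, and Irg1 (0.34) and Lmna (0.54) to Rhoj. Gadd45b (0.42) and Npas3 (0.42) were closest to C1qtnf6. Xlr4a stood at 27.5 and 29.1 CPM for leukemia 1, 0.164 and 0.608 CPM for leukemia 92 and 5.59 and 4.99 CPM for pro-B cells, the same order and nearly the same levels as Filip1. Fgf13 (0.39) and the pseudogene Rplp0-ps1 (0.27) were closest to Mid1. Ets1, a transcription factor of lymphocytes, was the closest to Gnb4 (0.56), at 715 and 710 CPM for pro-B cells, 160 and 109 CPM for leukemia 1 and 14.4 and 19.4 CPM for leukemia 92, followed by Zdhhc15 (0.66). Within the 10, the most alike were Lhx2 and Rhoj (0.44) and then Rimkla and Amph (0.65), while Krt75 and Gnb4 were the least alike (6.22).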

How the data were processed

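RNA-seq read counts per gene were analysed for 6 mouse libraries, 2 for each leukemia and 2 for the pro-B cells of wildtype mice. The deposited values are raw counts by the authors, and the submitters' processing notes name STAR 2.4, HTSeq 0.6.1, DESeq2 and the mm9 build. Which annotation was counted, and whether by strand, is not given in the sources used here: overlapping and antisense genes may share reads. The 5 entries that name no gene (34.0% to 39.6% of counts per library) were left out.

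Counts were tested with edgeR 4.0.16 (R 4.3.3). Genes were kept by filterByExpr (at least 10 counts) and scaled by TMM, followed by a quasi-likelihood fit of all 3 groups, and Benjamini-Hochberg adjusted p under 0.05 over 14979 genes. CPM uses TMM library sizes, with an offset of 0.5 before log2. A group at 0 was set to a floor of 3 counts, which is 0.111 to 0.140 CPM in single libraries. Intervals are 95% exact and cover counting error only.

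The members and lists were chosen with earlier results of these data known. Named genes are the 10, called relatives, 1 closest relative each and the 2 most similar genes. Alternatives were DESeq2 1.42.0, other size factors, no filter, a replicate block, each library left out, and other folds, offsets and levels for the private pattern. Counts for 1 of the 12 family lists are not reported here.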

Additional observations from a re-analysis of the deposited data

Results flagged for a closer look

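Relatives of 3 of the 10 genes differed between the leukemias in the test of all genes, and were set aside for that reason. Bin2, a BAR-domain relative of Amph, was higher in leukemia 92 by 1.37 on the log2 scale, and Lmo2, a LIM-only protein listed with Lhx2, by 0.73. Rhoh, a GTPase listed with Rhoj, differed by -1.15. All 3 calls were kept without either leukemia 1 library and were lost without any single library of leukemia 92 or of pro-B cells. Bin2 was higher in leukemia 92, as Amph was, and Rhoh lower, as Rhoj was, while Lmo2 was higher where Lhx2 was lower.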

How the results depend on the processing

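Of 300 fitted values of the 10 genes under the alternatives, 242 moved by less than the replicate SD, 57 moved by more and 1 changed sign: Lhx2 in leukemia 92 minus pro-B cells was -0.17 without leukemia 92 replicate 2 (0.53 with it) and reached 0.97 without pro-B replicate 1. Filip1l between the leukemias turned to 0.49 without leukemia 1 replicate 1 and was -0.77 without replicate 2. Between leukemia 92 and leukemia 1, the 273 higher and 190 lower genes became 1323 and 1340 with DESeq2, 0 and 0 with edgeR and a replicate block (3042 at an unadjusted p under 0.05), and 0 to 3909 and 0 to 4224 when 1 library was left out. The zeros came from leaving out a library of leukemia 92 (1552 or 1704 genes at an unadjusted p under 0.05) or of pro-B cells (2301 or 2303), the highest counts from leaving out one of leukemia 1. Family genes, 2 higher and 1 lower, became 19 and 10 with DESeq2, 0 and 0 with the replicate block, 1 higher without the low-count filter, and 0 to 53 and 0 to 34 with a library left out. Against pro-B cells, the 2198 higher genes of leukemia 92 ranged from 279 to 4994 and the 2498 lower from 190 to 5965 with a library left out, and 1597 were lower with the block. For leukemia 1, the 1431 higher and 1607 lower genes ranged from 0 to 4580 and 0 to 5061, were 701 and 738 with the block, and DESeq2 called 2317 higher. Replicate numbers did not pair the libraries (correlations of -0.16, 0.06 and -0.03 between groups), so the block has no basis in the design. The private pattern of leukemia 92 held for 12 genes, for 48 at 4-fold, 4 at 16-fold and 12 to 32 with a library left out (30 and 32 without leukemia 1 replicate 1 or 2, 20 without leukemia 92 replicate 2). That of leukemia 1 held for 5 genes, for 13 at 4-fold, 1 at 16-fold, 9 with an offset of 0.1 and 5 to 89 with a library left out (89 and 20 without leukemia 1 replicate 1 or 2). The cause was not tested, beyond the fewer libraries or the other fold asked for. A library left alone in its group was assumed to vary like the others.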

Other observations

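The gene closest to Rimkla and Amph, Brip1, reached 1298 and 1205 CPM in leukemia 92, which placed it first by level among the 12 genes with the private pattern there. Cd14 was the second, with 714 and 694 CPM, against 8.37 and 47.5 CPM in leukemia 1 and 1.89 and 2.81 CPM in pro-B cells. H19 led the 5 genes of leukemia 1, with a mean of 184 CPM. Erbb3 was the 1 gene with the mirror pattern in leukemia 1, at least 8-fold below the other 4 libraries. Of genes lower in leukemia 92 than in leukemia 1, 12 of 188 with a known chromosome lay on X (6.38%), and Mid1 is itself counted among these 12. The share was 11 of 266 for higher genes (4.14%) and 488 of 14199 for tested genes (3.44%).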
